A study of Mus musculus with 12 samples.

Results

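Transposable element (TE) copies that form part of the exons of long intergenic non-coding RNAs (lincRNAs) were examined in newborn mouse male germ cells with and without Morc1. A copy was taken when it overlapped an exon of a lincRNA gene of GENCODE release M21 (GRCm38) on its own strand and overlapped no exon of a protein_coding gene. The rule used only positions, but it was applied to listed copies, and no listed member had fewer than 10 reads over the libraries used. It found 1981 of the 298593 listed copies (0.663%). They lie in 1330 of the 5854 annotated lincRNAs, called host lincRNAs here, of which 1233 are listed in the gene table. The study profiled RNA of gonocytes, which are germ cells of the testis before and just after birth, isolated from mice that carry the Mvh-Venus transgene, a fluorescent reporter under the control of the germ cell gene Mvh (Ddx4). At postnatal day 0 (P0) 3 libraries came from Morc1 (+/-) mice (het) and 3 from Morc1 (-/-) mice (KO), all from testis. Both groups therefore carry the reporter, and the controls carry 1 altered Morc1 allele. The kind of Morc1 allele, and whether animals were pooled, are not given in the sources used here. Libraries of P3 mice were not analysed here. The labels do not say that replicates are separate animals, so the p-values below measure only the spread between these libraries.

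TEs are repeated sequences that descend from mobile elements, and many carry their own promoters, splice sites and signals for the end of a transcript. In mammals lincRNA exons often hold such sequences, and a lincRNA can begin or end inside one. MORC1 is an ATPase of the male germ line known for its part in silencing TEs while the genome of fetal germ cells is being remethylated.

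The sequences below show where the members meet their hosts. The first set holds the first bases of host transcripts that begin inside a copy that was higher in KO, with the largest rises first, cut at 120 bases or at the end of the exon or copy. Such a host reads its 5′ end from TE sequence. They were read from GENCODE M21 transcripts and are all in lower case because no part is marked. The AC154349.1 stretch lies at chr17:91566104-91566223 (+), Gm45090 at chr7:82156905-82157024 (-), Gm12496 at chr4:53403986-53404030 (-) and Gm30198 at chr12:102447328-102447447 (+), all in GRCm38. The stretch of Gm12718, which also met the rule, is 17 bases long and is not printed.
AC154349.1: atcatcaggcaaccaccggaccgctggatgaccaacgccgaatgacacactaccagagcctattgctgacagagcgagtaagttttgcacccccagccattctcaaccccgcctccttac
Gm45090: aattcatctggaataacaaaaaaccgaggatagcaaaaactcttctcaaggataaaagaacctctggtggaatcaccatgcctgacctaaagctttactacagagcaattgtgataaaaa
Gm12496: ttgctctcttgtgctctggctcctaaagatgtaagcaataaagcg
Gm30198: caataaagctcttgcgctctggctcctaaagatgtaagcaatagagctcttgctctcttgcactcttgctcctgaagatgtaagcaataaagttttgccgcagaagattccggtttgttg

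The second set, chosen after values were seen, shows copies of similar sequence on different chromosomes. The 178-bp copy in Gm15389 (chr1:107687148-107687325, +) and the 178-bp copy in Gm41318 (chr15:49194484-49194661, +) lie wholly within exons, and both copies and both hosts rose in KO. They were identical at 164 of 179 aligned positions (91.6%). The stretch from Gm11851 (chr4:17657630-17657802, -) matched the Gm15389 copy at 161 of 174 aligned positions (92.5%), and its copy had a log2 difference of 2.86 with an adjusted p of 0.0528 (limma). Capitals mark bases that differ from, or have no partner in, the Gm15389 copy.
Gm15389: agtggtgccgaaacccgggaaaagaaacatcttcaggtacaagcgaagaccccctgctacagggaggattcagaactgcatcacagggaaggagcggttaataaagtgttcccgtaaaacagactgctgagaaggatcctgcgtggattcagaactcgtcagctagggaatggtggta
Gm41318: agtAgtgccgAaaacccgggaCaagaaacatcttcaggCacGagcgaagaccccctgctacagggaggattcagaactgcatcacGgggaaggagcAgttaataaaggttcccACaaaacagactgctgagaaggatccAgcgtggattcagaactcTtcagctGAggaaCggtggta
Gm11851: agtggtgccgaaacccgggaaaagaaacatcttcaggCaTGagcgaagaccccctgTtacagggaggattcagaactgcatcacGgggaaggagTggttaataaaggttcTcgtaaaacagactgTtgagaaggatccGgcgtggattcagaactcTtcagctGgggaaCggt

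The third set shows ends, also chosen after values were seen. It holds the last 50 bases of host transcripts that end inside a copy that was higher in KO, where the host rose too and the stretch holds AATAAA, the usual signal for cleavage and polyadenylation. Capitals mark that signal, which was searched on the transcript's strand. The Gm12589 end lies at chr11:121810270-121810319 (+), with 33 of the 50 bases in the copy, and those of Gm33251 (chr15:40128933-40128982, +) and Gm4316 (chr8:123178716-123178765, +) lie wholly in their copies. In the Gm40538 end (chr12:90399667-90399716, -) only the last 6 bases lie in the copy, so its signal lies outside that copy. AATAAA was in the last 50 bases of 2551 of 8540 lincRNA transcripts (29.9%), of 180 of the 521 that end in a member copy (34.5%) and of 8 of the 30 that end in a copy higher in KO (26.7%).
Gm12589: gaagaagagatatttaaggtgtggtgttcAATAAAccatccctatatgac
Gm33251: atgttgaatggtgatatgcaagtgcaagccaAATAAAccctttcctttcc
Gm40538: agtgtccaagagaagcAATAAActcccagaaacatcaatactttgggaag
Gm4316: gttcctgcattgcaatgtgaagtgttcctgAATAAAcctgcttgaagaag

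Libraries held 28363683 to 32816861 reads in listed genes and 1974504 to 3703419 reads in listed TE copies. Morc1 itself fell in KO, with normalised counts of 7248, 7485 and 4126 in het and 1361, 1343 and 1794 in KO (log2 difference -2.03, SE 0.27, limma adjusted p 0.0109). Its call was lost without KO replicate 1 (-1.97, adjusted p 0.101), KO replicate 3 (-2.17, 0.0663) or het replicate 1 (-1.90, 0.0511). The germ cell markers Ddx4 and Dazl were high in all 6 libraries. Of 7 Sertoli cell markers all 7 had a negative difference, with a summed normalised count of 17536 to 37259 in het and 12581 to 18099 in KO, and 0 of 7 passed limma (3 at an unadjusted p under 0.05). The 5 Leydig cell markers summed to 776, 1079 and 24921 in het replicates 1 to 3 and to between 510 and 1075 in KO, so 1 het library stands apart, and 0 of 5 passed limma (0 at an unadjusted p under 0.05). The part of such cells in the results below was not tested, and in bulk RNA fewer cells of a type and less RNA per cell cannot be told apart.

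Of the 1981 copies, 607 had a mean of at least 10 normalised counts over the 6 libraries and were tested, and 1374 were below it. In the tested copies 63 rose in KO (10.4%) and 7 fell (1.15%), against 15.6% and 0.735% of the 49781 tested copies of all kinds, at a Benjamini-Hochberg adjusted p under 0.05 in limma. The share that rose was thus under the background over all lengths and the share that fell above it, but by length the members were at 7.02% against 3.73% of all tested copies up to 500 bp, 12.7% against 12.1% above 500 and up to 5000 bp, and 57.9% against 58.3% over 5000 bp. At an unadjusted p under 0.05 in limma, either way, were 125 of the 607 (background 25.6). A copy can pass the mean filter through the group where it is high alone, so these counts describe the tested copies and not all members. Of the tested members with a het mean under 10, 37 of 89 rose (41.6%), and of those with a het mean of at least 10, 26 of 518 (5.02%). The tested copies of all kinds were not split in this way. The median log2 difference was -0.14 in tested members and 0.03 in all tested copies, 3.18 (1.43 to 5.03) in the 63 and -2.14 (-2.56 to -1.497) in the 7. With quantile normalisation 44 rose and 25 fell, and without KO replicate 1 only 33 rose, while without het replicate 3 11 fell. Leaving out both het replicate 3 and KO replicate 2, an alternative added after seeing the data, gave 66 and 11.

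Over all 1981 members, tested or not, the KO mean was above the het mean in 944 (47.7%, against 47.6% of all listed copies). In 99 tested members (16.3%, against a background of 22.8) every KO library was above every het library, and in 70 (11.5%, background 7.58) every KO library was below.

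Summed over all members, reads per 100 gene reads came to 0.0938, 0.0902 and 0.113 for het and 0.110, 0.139 and 0.128 for KO (0.0989 ± 0.0121 and 0.126 ± 0.0146, mean ± SD, n = 3). The groups overlapped, because het replicate 3 was above KO replicate 1. Per 100 TE reads the direction turned, at 1.43, 1.499 and 1.29 in het and 1.24, 1.07 and 1.36 in KO, since reads in all TE copies also differed (7.09 ± 1.43 and 10.5 ± 2.25 per 100 gene reads, n = 3). The 63 copies that rose, chosen by this contrast, made up 0.00309, 0.00255 and 0.00399 reads per 100 gene reads in het and 0.0200, 0.0303 and 0.0191 in KO.

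The copies with the largest rises were mostly in lincRNAs without a well-known function. The 1513-bp copy in 1700030N03Rik (chr19:3150247-3151759, -) had 4.22, 2.24 and 0 normalised counts in het, against 107, 42.6 and 126 in KO. All 3 KO libraries were above the highest het library (log2 difference 5.03, SE 0.77, limma adjusted p 0.00132). The longest transcript of this host matched 94.0% of its length to a lincRNA on another chromosome, Gm49507, at 99.3% identity, so its reads may be shared between loci. The 4158-bp copy in AC154349.1 (chr17:91562243-91566400, +) had 0, 2.24 and 3.83 in het and 76.3, 61.9 and 57.3 in KO. Its host starts at base 3862 of the copy, and 6.28% of the copy lies within exons, so most of its reads can come from outside the lincRNA.

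The 6178-bp copy in Gm45090 (chr7:82155062-82161239, -) holds 100% of that lincRNA's exons, which make up 18.6% of the copy. It had 2.11, 2.24 and 2.88 normalised counts in het and 81.1, 108 and 55.6 in KO, with no overlap (log2 difference 4.56, SE 0.58, limma adjusted p 0.000609). The 892-bp copy in Gm43303 (chr5:45192608-45193499, -), which holds the host's end, had 5.27, 0 and 1.92 in het and 42.0, 73.5 and 76.1 in KO. Of the exon bases of Gm43303 100% lie in its 3 member copies.

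Platr13 is one of a series of RNAs named for their link to pluripotency in embryonic stem cells. Its 2669-bp copy (chr11:41220807-41223475, +) had 5.27, 4.49 and 0 normalised counts in het and 83.9, 90.6 and 56.5 in KO (log2 difference 4.55, SE 0.77, limma adjusted p 0.00215). A 2676-bp copy in Platr15 (chr2:150702450-150705125, -), of the same series, had 15.8, 31.4 and 18.2 in het and 91.6, 76.6 and 198 in KO (log2 difference 2.36, SE 0.49, adjusted p 0.00663). The 184-base exonic piece of Platr13 matched that of Platr15 at 171 of 184 aligned positions (92.9%). Only 6.89% of the Platr13 copy and 18.1% of the Platr15 copy lie within exons, so most of their reads can come from outside the lincRNAs. Both copies hold the end of their host, and in both every KO library was above every het library.

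Fewer reads stood behind several others. The 674-bp copy in Gm26547 (chr17:55562836-55563509, +) was without reads in het and had 18.1, 16.3 and 27.4 normalised counts in KO, which is at least 6.57-fold higher against a floor of 3 reads per library. Its call was lost without het replicate 1 (adjusted p 0.0651) or het replicate 2 (0.0665). The 371-bp copy in Gm40518 (chr9:48132563-48132933, -) had 3 reads over the het libraries and 154 over the KO libraries, a ratio of 51.3 (95% counting interval 17.2 to 252, from the exact Clopper-Pearson interval of the KO share of reads). The 407-bp copy in Gm33251 (chr15:40128628-40129034, +) had 3 and 125 reads, a ratio of 41.7 (13.9 to 205). These intervals cover counting error only, since the reads carry no molecular identifiers.

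The 639-bp copy in Gm47450 (chr13:4915641-4916279, -) depended on single libraries. It had 0, 0 and 35.5 normalised counts in het and 65.8, 73.5 and 151 in KO, and its log2 difference of 4.78 (SE 1.17, limma adjusted p 0.0159) lost its call without any 1 KO library (adjusted p 0.0652 to 0.0994). It did not pass in edgeR (2.89, adjusted p 0.150) or DESeq2 (2.83, adjusted p 0.517) either. The only het library with reads was het replicate 3, the library that stands apart in Leydig markers. The 5660-bp copy in Gm12480 (chr4:54655412-54661071, +) had 7.38, 0 and 13.4 in het and 102, 101.4 and 74.4 in KO, and 11.8% of it lies within exons.

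Of the 12 called hosts for which the rule named the most abundant copy, 10 had a copy that rose, and the copies of Gm20110 and AC141429.2 were below the mean filter. The 178-bp copy in Gm15389 had 28.5, 15.7 and 11.5 normalised counts in het and 278, 185 and 278 in KO (log2 difference 3.73, SE 0.44, limma adjusted p 0.000489). The 178-bp copy of similar sequence in Gm41318 had 15.8, 11.2 and 20.1 in het and 105, 118 and 77.0 in KO (2.61, SE 0.44, adjusted p 0.00233). In both copies the lowest KO library was more than 3 times the highest het library. The 81-bp copy at the end of Gm12589 (chr11:121810287-121810367, +) had 10.5, 8.97 and 12.5 in het and 93.5, 84.4 and 117 in KO (3.09, SE 0.44, adjusted p 0.00102). The 470-bp copy at the end of Gm44693 (chr8:5436824-5437293, -) had 5.27, 14.6 and 4.79 in het and 90.6, 210 and 149 in KO (4.11, SE 0.55, adjusted p 0.000742). Per kilobase the Gm15389 and Gm12589 copies were the highest of these, with means of 746 and 673 normalised counts per kb, against 325 for Gm41318 and 168 for Gm44693.

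The 405-bp copy at the end of Gm30735 (chr3:53732712-53733116, +) had 32.7, 13.5 and 20.1 in het and 273, 92.1 and 148 in KO (2.84, SE 0.51, limma adjusted p 0.0029). The 1363-bp copy in Gm40538 (chr12:90406476-90407838, -) had 15.8, 21.3 and 45.0 in het and 112, 157 and 85.5 in KO (2.16, SE 0.48, adjusted p 0.00964), but 6.16% of it lies within exons. The groups did not overlap in either. The 267-bp copy in AC106834.1 (chr19:21186927-21187193, -) had 17.9, 5.61 and 0 in het and 87.8, 34.8 and 43.6 in KO (3.38, SE 0.95, adjusted p 0.0303), and its call was lost without any 1 KO library (0.0797 to 0.164) and in edgeR (0.101).

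**Figure D1:**
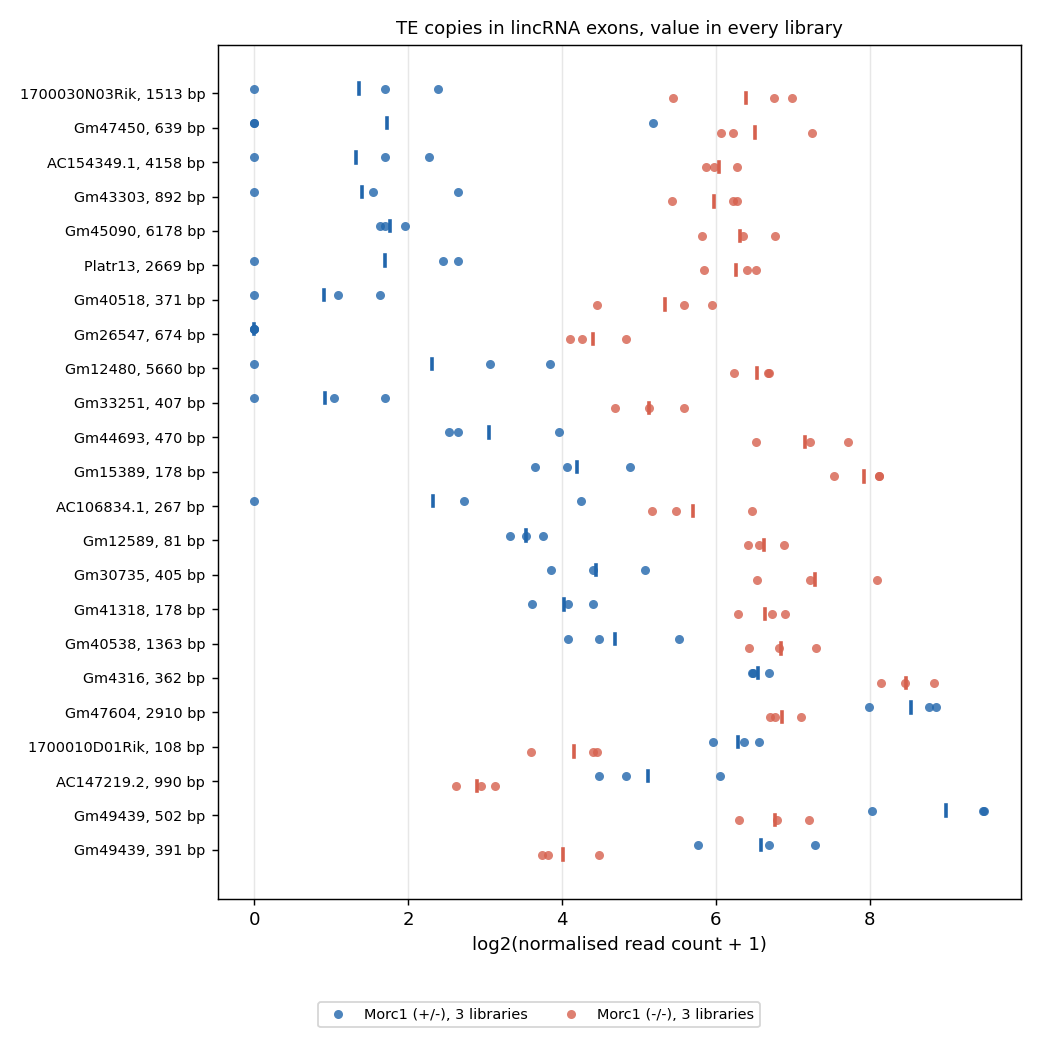
Values in every library for the 23 tested copies named for their rise, for their host or for their fall. The x axis is log2 of the normalised read count plus 1, each row is a copy, points are libraries (blue het, red KO) and bars are group means. In the upper 18 rows every KO library lies right of every het library, and in the lower 5 rows every KO library lies left.

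The share that rose was highest among member copies over 5000 bp. Of these 11 of 19 tested rose (57.9%), a share near that of all tested copies of that length (4775 of 8185, 58.3%). The shares were 15 of 76 (19.7%) above 1000 and up to 5000 bp, 9 of 113 (7.96%) above 500 and up to 1000 bp, 19 of 266 (7.14%) above 250 and up to 500 bp and 9 of 133 (6.77%) up to 250 bp. The share also varied with the place in the host, at 16 of 97 (16.5%) for copies that hold a host start, 24 of 177 (13.6%) for those with an end and 23 of 333 (6.91%) for inner copies. Place goes with length. Among copies over 1000 bp the shares were 10 of 23 at starts, 9 of 28 at ends and 7 of 44 inside, with median lengths of 4158, 2339 and 1623 bp. Up to 1000 bp they were 6 of 74 at starts (8.11%), 15 of 149 at ends (10.1%) and 16 of 289 inside (5.54%). Where a copy held at least 80% of its host's exons, 8 of 14 rose, and the 14 had a median length of 5666 bp. Copies with under 10% of their length in exons (median length 1389 bp) rose in 16 of 63 cases, and those wholly within exons (294 bp) in 9 of 185. On the X chromosome 1 of 6 tested copies fell, and is described below. The differences between classes were not tested.

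Copies elsewhere in the genome were split by length in the same way. Copies that overlap lincRNA exons only on the opposite strand rose in 35 of 328 cases (10.7%). Copies in protein_coding exons of their own strand rose in 31 of 2096 cases (1.48%), and intergenic copies in 5797 of 20598 (28.1%). Over 5000 bp the shares were 57.9% for the members, 45.5% for the opposite strand, 33.3% for protein_coding exons and 61.1% for intergenic copies. Copies over 5000 bp made up 19 of the 607 tested members and 5748 of the 20598 intergenic copies tested. In the shorter classes the members lay between intronic and intergenic copies. Up to 500 bp 7.02% of the members rose, against 1.42% of intronic and 9.53% of intergenic copies, and above 500 and up to 5000 bp 12.7%, against 4.72% and 20.7%. Over all lengths 7.59% of intronic copies rose, and over 5000 bp 52.3%. These differences were not tested.

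**Figure D2:**
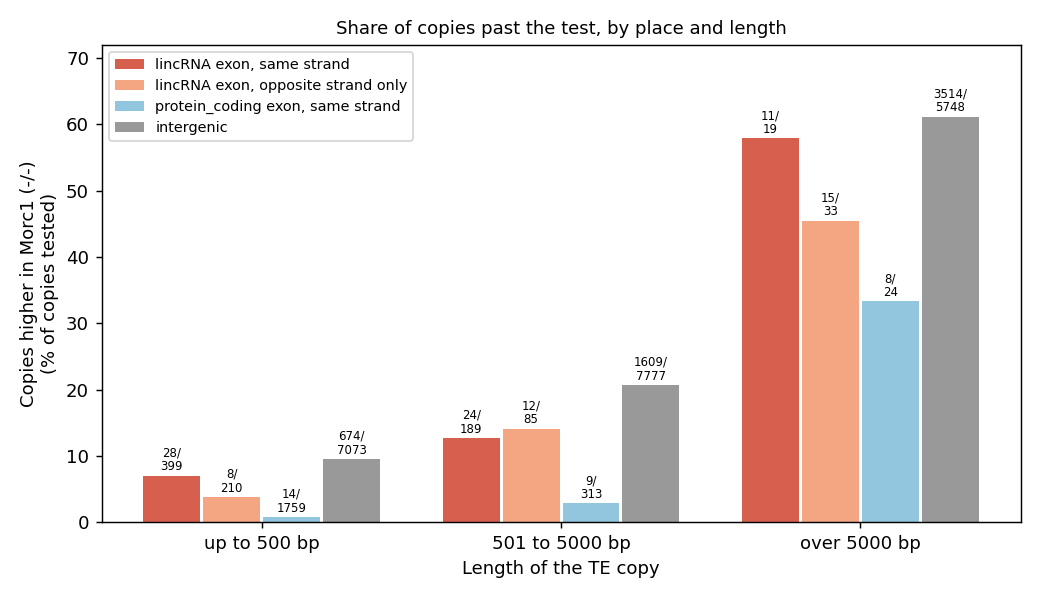
Share of tested copies that rose in KO (y axis, percent) by length of the copy (x axis) and by place (colour), with the number that rose over the number tested above each bar. In each place the share over 5000 bp is the highest, from 33.3% in protein_coding exons to 61.1% in intergenic copies.

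The 7 copies that fell lie in 6 lincRNAs. Gm49439 holds a pair of them: the 391-bp copy at its start (chr15:42067445-42067835, -) had 102, 155 and 53.7 normalised counts in het and 12.4, 13.2 and 21.4 in KO (log2 difference -2.56, SE 0.51, limma adjusted p 0.0051). The 502-bp copy inside it (chr15:42066616-42067117, -) had 716, 708 and 260 in het and 147, 110 and 77.8 in KO (-2.23, SE 0.45, adjusted p 0.0061), and 8.57% of it lies within exons. In both, het replicate 3 was the lowest het library and still above every KO library. The host had a mean of 586 in het and 142 in KO with an adjusted p of 0.0882 (limma), so it did not pass the test.

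The 108-bp copy in 1700010D01Rik on the X chromosome (chrX:95732966-95733073, -) had 61.2, 93.1 and 81.5 in het and 20.98, 20.1 and 11.1 in KO (-2.14, SE 0.46, limma adjusted p 0.0080). The 2910-bp copy in Gm47604 (chr9:85940049-85942958, -) had 435, 462 and 253 in het and 136, 108 and 104 in KO, but 2.06% of it lies in the exon. The 990-bp copy at the start of AC147219.2 fell by 2.22 on the log2 scale (adjusted p 0.0319), and its call was lost without het replicate 1 (0.0712), het replicate 3 (0.112) or any 1 KO library (0.0631 to 0.0853). The other two were the 1179-bp copy in Gm46516 (-1.52) and the 147-bp copy in Gm12865 (-1.497). All 6 hosts had negative differences, and none passed limma (adjusted p 0.0882 to 0.903). Hosts share reads with these copies, which were chosen for their fall, so the shared sign is a description only.

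In the test as described none of the 5 most abundant members passed. The highest, a 2365-bp copy in Gm14230, had 2086, 2096 and 1196 normalised counts in het and 1542, 1351 and 953 in KO, with overlapping groups. The 429-bp copy in 1700054O05Rik had 449, 496 and 360 in het and 966, 445 and 1135 in KO, where KO replicate 2 lay within the het range (log2 difference 0.87, limma adjusted p 0.215). This copy passed with the size factors of the gene table (adjusted p 0.0356), with no filter on low values (0.0240) and without het replicate 3 and KO replicate 2 (0.0293). Per kilobase it was the higher of the pair, with a mean of 1496 normalised counts per kb against 650 for Gm14230. The 1136-bp copy in Gm35533 had 504, 427 and 1243 in het and 121, 403 and 400 in KO, with no overlap on this scale (log2 difference -1.25, SE 0.54, limma adjusted p 0.165). Rescaled with the size factors of the gene table, its groups overlap. This copy passed with no filter on low values (limma adjusted p 0.00563). The other two of the 5 were the 674-bp copy in 5033426E14Rik (-0.29, adjusted p 0.704) and the 854-bp copy in 1300002E11Rik (-0.34, adjusted p 0.612).

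The host lincRNAs were read from the gene table, where 922 of the 1233 listed hosts passed the mean filter. Of these 19 rose (2.06%) and 0 fell, against 0.431% and 0.0423% of the 26005 genes tested (limma). A host, too, can pass the mean filter through the group where it is high alone. Among the called hosts this held for AC141429.2 (het mean 0), Gm20110 (0.954) and Gm27224 (1.29), among others. The counts therefore describe the tested hosts and not all hosts. At an unadjusted p under 0.05 in limma, 107 hosts were higher and 29 lower, making 136 of 922, against 114 of 1194 lincRNAs that hold no listed member copy. The share over all tested genes was not taken at this threshold, so whether these counts are particular to the hosts is not known. Of the hosts edgeR called 24 higher and 0 lower (121 and 8 over all genes), and DESeq2 called 51 and 2 (400 and 65 over all genes). In 135 of the 922 (14.6%, background 7.17) every KO library was above every het library, and in 55 (background 5.57) every KO library was below. Of the 1194 lincRNAs without a listed member copy, 4 rose and 1 fell in limma. Which lincRNAs count as hosts is not set by position alone. No listed member had fewer than 10 reads over the 6 libraries, and 75 members had no het read against 30 with no KO read. A lincRNA can therefore count as a host through KO reads alone, as with Gm20110 (0 het and 45 KO reads in its 1 member copy). The comparison of hosts with other lincRNAs is thus not independent of the contrast. The 19 depended on every KO library: without KO replicate 1 or KO replicate 3 only 3 hosts rose, and without KO replicate 2 only 5. All 17 calls other than Gm15389 and Gm12589 were lost without at least 1 KO library, at adjusted p of 0.0517 to 0.288 where a single library was left out. Without het replicate 3 and KO replicate 2 together 7 rose and 1 fell.

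Gm15389 and Gm12589 kept their calls under every alternative run for hosts. Gm15389 (chr1:107687008-107693514, +) had 62.9, 41.5 and 50.7 normalised counts in het and 815, 631 and 859 in KO (log2 difference 3.87, SE 0.30, limma adjusted p 0.000577). Gm12589 (chr11:121803107-121810319, +) had 114, 66.6 and 146 in het and 1248, 1217 and 1609 in KO (3.69, SE 0.32, adjusted p 0.00119). In both lincRNAs the lowest KO library was far above the highest het library. Per kilobase of exon their means were 616 and 1150 normalised counts.

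Gm40538 (chr12:90399667-90408824, -) had 122, 89.8 and 142 in het and 747, 691 and 510 in KO (2.46, SE 0.30, limma adjusted p 0.00914), a call lost without KO replicate 1 (adjusted p 0.0839). Gm44693 (chr8:5436984-5440990, -) had 5.72, 13.5 and 8.78 in het and 100.9, 290 and 191 in KO (4.18, SE 0.54, adjusted p 0.0104), a call lost without KO replicate 2 (0.0561) or 3 (0.106). Gm41318 (chr15:49194337-49203313, +) had 26.7, 19.3 and 46.8 in het and 291, 322 and 209 in KO (3.17, SE 0.41, adjusted p 0.0109), a call lost without any 1 KO library (0.0523 to 0.102). In each the groups did not overlap.

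The largest host difference was at AC141429.2, with no het read in any library and 141, 86.8 and 264 normalised counts in KO, at least 56.5-fold higher against a floor of 3 reads per library. This call was lost without KO replicate 1 (limma adjusted p 0.0820) or 3 (0.0663). Its 1 member copy, of 461 bp at its start, had 1 read over the het libraries and 67 over the KO libraries and was below the mean filter. Gm20110 (chr10:99609171-99658134, +), with 3 het reads in all, had 2.86, 0 and 0 in het and 81.1, 135 and 92.1 in KO. It overlaps Gm18409 on the opposite strand, and the strand used in counting is not given in the sources used here. The other called hosts were Gm40518 (5.19), Gm33251 (5.59), Gm43303 (5.10), Gm27224 (5.07), Gm48313 (5.06), Gm20750 (4.66), Gm36888 (4.64), Gm30198 (3.85), 1700030N03Rik (3.42), Gm30735 (3.39), AC106834.1 (3.37) and Gm4316 (2.22), given as log2 differences, each with no overlap between groups. For Gm43303, AC106834.1, 1700030N03Rik and Gm4316 the span overlaps other annotated genes. The longest Gm27224 transcript matched another gene, Olfr1372-ps1, at 94.8% identity over 64.2% of its length, and those of Gm15389 and Gm41318 matched Gm6410 at 88.6% over 48.8% and at 96.3% over 47.0%. The Gm4316 transcript matched Miga1 at 99.4% over 30.1%, and that of AC141429.2 matched Gm15758 at 93.1% over 32.9%. The counts of these 5 hosts are uncertain by the reads that fit both genes.

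**Figure D3:**
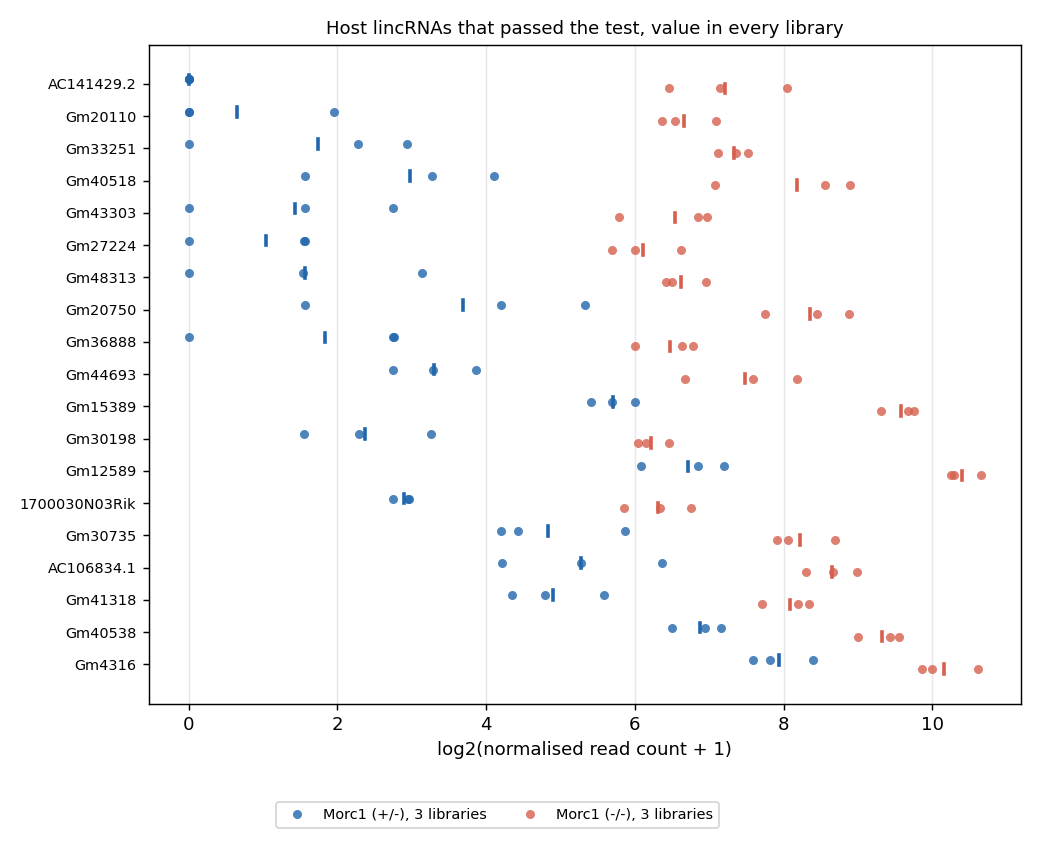
Values in every library for the 19 host lincRNAs that rose. The x axis is log2 of the normalised read count plus 1, each row is a lincRNA, points are libraries (blue het, red KO) and bars are group means. In all 19 rows the 3 KO libraries lie right of the 3 het libraries, with AC141429.2 at 0 in het.

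Hosts were also split by whether they begin or end inside a member copy. Of the tested hosts with an annotated start in a member copy 11 of 199 rose (5.53%), against 8 of 723 without one (1.11%). For hosts with an end in a copy the counts were 8 of 316 (2.53%) and 11 of 606 (1.82%), and for those with neither 3 of 453 (0.662%). This split was made after the called hosts were known, and the difference was not tested. Several of these starts lay 66.6% to 72.3% along copies of similar size: at base 277 of the 416-bp copy in Gm15389, base 356 of the 499-bp copy in Gm41318, base 350 of the 493-bp copy in Gm44693, base 276 of the 382-bp copy in Gm43303 and base 380 of the 535-bp copy in Gm30198. Over the 13 start copies of called hosts the start lay in the latter part of the copy (past 50% of its length) in 11 cases (84.6%), against 139 of all 300 start copies (46.3%). In the start copies that rose themselves it did so in 9 of 16 (56.25%). The starts of called hosts ranged from 31.5% (Gm40518) to 80.9% (AC106834.1) along the copy. AC106834.1 and Gm4316 each hold more than 1 of the 13 copies, and these differences were not tested. A start copy counts only if it is listed, and some had almost all their reads in KO. The start copies of Gm36888, Gm43303 and AC141429.2 had 0, 0 and 1 het reads and 18, 12 and 67 KO reads. Others had het reads too, as in Gm15389 (25 het and 157 KO reads). The split of hosts by start and the positions of the starts are therefore not independent of the contrast.

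Of these 13 start copies 9 were below the mean filter, and 2 of the 4 tested ones rose, in Gm15389 and Gm30198. The 416-bp copy in Gm15389 (chr1:107686732-107687147, +) had 8.44, 7.85 and 9.58 normalised counts in het and 48.6, 35.6 and 51.3 in KO (log2 difference 2.25, SE 0.51, limma adjusted p 0.0109). It ends at the base before the 178-bp copy printed above. The 499-bp start copy in Gm41318 (chr15:49193982-49194480, +) had 2.11, 0 and 1.92 in het and 10.5, 9.29 and 1.71 in KO and was below the mean filter. RefSeq places a start of Gm41318 further on, inside its 178-bp copy. The 300-base window around that start (250 before, 50 after; chr15:49194392-49194691, +, RefSeq on GRCm38.p6) is shown with the 178 bases of the copy in capitals. The letters TATAAA, searched on both strands, are not in it, and were in 4473 of 32851 RefSeq windows (13.6%), in 442 of the 2581 windows of lincRNAs (17.1%) and in 13 of the 76 whose start lies in a member copy (17.1%).
Gm41318: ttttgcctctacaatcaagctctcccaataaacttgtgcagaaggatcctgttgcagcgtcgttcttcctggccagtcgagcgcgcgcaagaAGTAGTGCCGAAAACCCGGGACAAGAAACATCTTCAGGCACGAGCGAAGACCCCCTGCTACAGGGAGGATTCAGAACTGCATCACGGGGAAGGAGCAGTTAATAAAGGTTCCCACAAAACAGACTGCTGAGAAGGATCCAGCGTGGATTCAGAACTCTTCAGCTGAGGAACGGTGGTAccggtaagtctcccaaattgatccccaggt

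Copies and hosts were then set side by side. Of the 47 hosts of copies that rose, 36 were tested in the gene table, 36 had a positive difference (median 3.35) and 14 passed the test. The other 5 called hosts, AC141429.2, Gm20110, Gm27224, Gm36888 and Gm48313, hold no tested copy. Over the 536 pairs of a tested copy and its tested host, the log2 differences of copy and host had a Pearson correlation of 0.894 and a Spearman correlation of 0.828 across pairs, with the same sign in 407 (75.9%). These are descriptions only, since the 2 values share reads and pairs are not independent.

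The ratio of copy to host in the same library was tested over 3323 pairs of a copy and a gene of any type. In limma 0 of the 536 member pairs passed (0 of 3323 in all), 71 (13.2%, background 7.97) had an unadjusted p under 0.05, and the smallest adjusted p was 0.217. The median ratio difference was -0.36 in members and -0.31 in all pairs, with copies and genes each scaled by their own size factors. With the size factors of the gene table it was near 0 in both, at -0.04 and 0.02. Single pairs with large differences did not pass: the 430-bp copy at the end of Gm42047 (chr8:121840835-121841264, +) had a copy-to-host difference of 2.73 (SE 0.53, adjusted p 0.309).

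**Figure D4:**
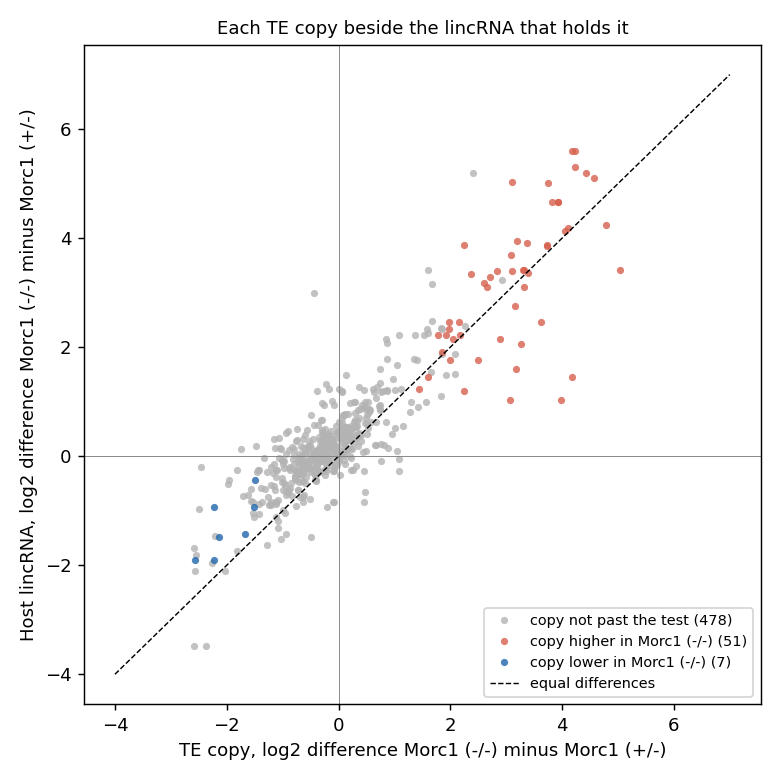
Log2 difference (KO minus het) of each tested copy (x axis) and of its tested host lincRNA (y axis) for 536 pairs, coloured by whether the copy passed the test. The dashed line marks equal differences. All 51 pairs whose copy rose have a positive host difference, and all 7 pairs whose copy fell have a negative one.

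Gm4316 (chr8:123165255-123178765, +) is a called host whose exons lie mostly in TE copies. It holds 8 member copies over 81.2% of its exon bases, and the host had 225, 192 and 335 normalised counts in het and 1020, 1568 and 933 in KO (log2 difference 2.22, SE 0.31, limma adjusted p 0.0123), a call lost without KO replicate 1 (adjusted p 0.0970), KO replicate 3 (0.0675) or het replicate 1 (0.0539). It overlaps Gm20388 on its strand, so the counts of the host can be split or shared. The 3 copies nearest its end rose. The 4996-bp copy (chr8:123172951-123177946) had 85.4, 76.3 and 63.3 in het and 395, 331 and 302 in KO (2.18, SE 0.34, adjusted p 0.00149), with 5.92% of it within exons. The 362-bp copy (chr8:123178094-123178455) had 88.6, 87.5 and 103 in het and 350, 454 and 281 in KO (1.93, SE 0.35, adjusted p 0.00308).

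The 357-bp copy at the end of Gm4316 (chr8:123178456-123178812) rose by 1.78 (SE 0.40, limma adjusted p 0.0103). Upstream, the 5695-bp copy (chr8:123165457-123171151) had 26.4, 8.97 and 19.2 in het and 33.4, 60.4 and 24.0 in KO, with overlapping groups (1.09, SE 0.58, adjusted p 0.285). The 355-bp copy that holds an inner start (chr8:123172596-123172950) had 11.6, 8.97 and 2.88 in het and 17.2, 21.7 and 27.4 in KO (1.53, SE 0.69, adjusted p 0.188). Whether the copies of Gm4316 differ from one another was not tested.

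**Figure D5:**
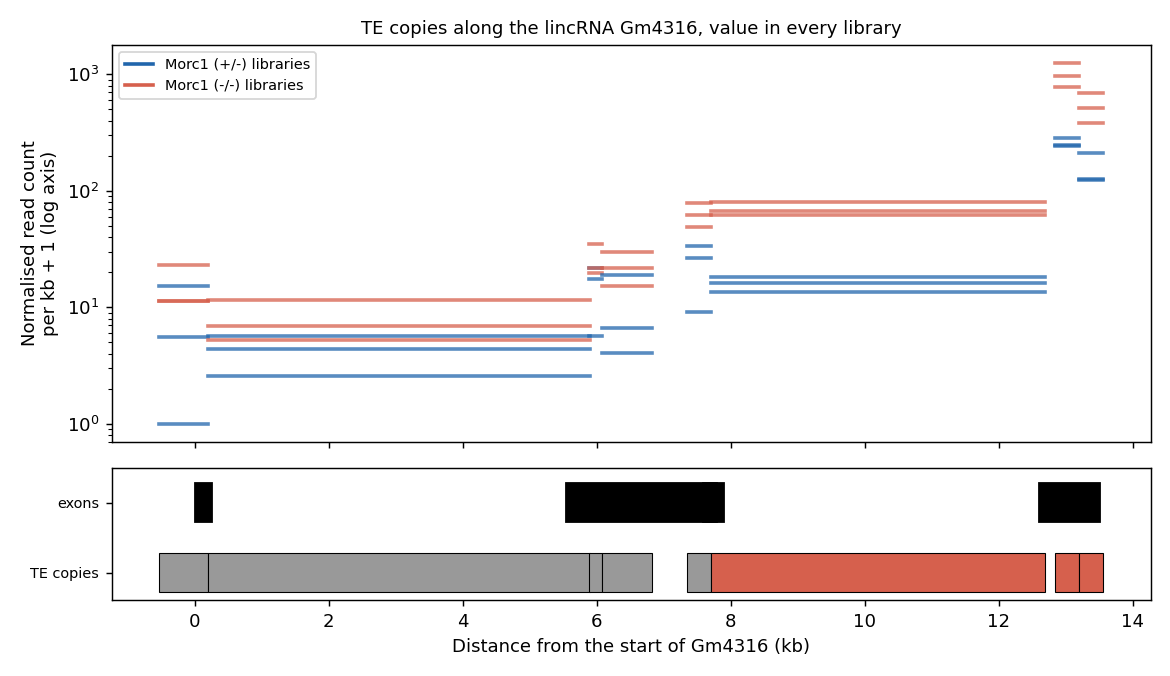
The 8 TE copies and the exons of Gm4316 by distance from its start (x axis, kb). The upper part shows the normalised read count per kb plus 1 on a log axis, with 1 line per library (blue het, red KO); in the lower part the 3 copies that rose are red. The levels per kb are highest over the 362-bp and 357-bp copies near the end.

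Several other hosts held more than 1 copy that rose. In Gm20750 3 of 3 tested copies rose, in Gm40538 3 of 3 and in 1700030N03Rik 3 of 4, and in Gm15389, Gm33251 and Gm30735 2 of 2. The 194-base exonic pieces of the 509-bp and 510-bp copies in 1700030N03Rik, which both rose, were 100% identical, so their reads may be shared. Of the 566-bp copy in Gm40538, 1.06% lies within exons. Gm42047 holds a 7560-bp copy at its start (chr8:121833275-121840834, +) with 109, 127 and 142 normalised counts in het and 399, 614 and 222 in KO (log2 difference 1.59, SE 0.41, limma adjusted p 0.0203). The host had 52.5 on average in het and 149 in KO, with an adjusted p of 0.336. Over all members that rose, 24 of 63 (38.1%) had another copy that rose, outside the members, within 10 kb, against 20 of 544 (3.68%) of the tested members that did not rise. This share was not taken over all tested copies, so whether it is particular to the members is not known. The members that rose were also longer (median 566 bp against 370 bp), and the difference was not tested.

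Members that share sequence did not always share the difference. Of 566 exonic pieces of at least 50 bases, 105 fell into 33 groups linked by at least 80% identity over at least 80% of the shorter piece (blastn), and 25 of the 58 pieces whose copy rose were in such a group. The pieces of Gm47939, Gm43549 and Gm42047, of 2179 to 2184 bases on 3 chromosomes, were 99.0% to 99.5% identical, and their copies rose by 2.02, 2.44 and 1.59. Reads that match several such copies may have been assigned to any of them, since the treatment of such reads is not given in the sources used here. By contrast, the 359-base piece of Gm45425 was 90.6% identical to the Gm45090 piece, and its copy had a log2 difference of -0.76 (limma adjusted p 0.760). The 109-base piece of the Gm49439 start copy, which fell, was 83.0% identical to part of the 343-base piece of the Gm11851 copy, which had a positive difference.

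Known lincRNAs were looked at as a list of 63 names of well-studied long non-coding RNAs. Of these 56 are listed in the gene table and 32 are typed as lincRNA, of which 30 were tested. In limma 0 of the 30 passed (2 at an unadjusted p under 0.05), edgeR and DESeq2 each called 0, and their median log2 difference was 0.08. The unadjusted pair was Platr15 (3.34, SE 1.00, adjusted p 0.350) and Neat1 (0.55, SE 0.21, adjusted p 0.591), the RNA that builds paraspeckles. Of the list, 10 tested lincRNAs are hosts of member copies, and 8 of the 10 had a positive difference, against 20 of all 30. Only 1 of the 10 had an unadjusted p under 0.05 in limma. Meg3, an imprinted lincRNA expressed from the maternal allele, is among the most abundant hosts, and had 1467, 1397 and 2448 normalised counts in het and 1445, 2450 and 1586 in KO, with overlapping groups. The most abundant host, 2900097C17Rik, had 4927, 5409 and 3230 in het and 7941, 5900 and 9126 in KO, where the groups did not overlap (0.77, SE 0.26, adjusted p 0.460).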

How the data were processed

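RNA-seq of sorted P0 germ cells was read from 2 deposited tables, for genes and for TE copies, with 6 columns each. Libraries were made with a SMART-Seq low-input cDNA kit and a TruSeq kit, per the labels' protocols. The submitters' processing notes name bcl2fastq 2.20, cutadapt 1.18, HISAT2 2.1.0, featureCounts 1.5.2, DESeq2 1.26.0 and mm10/GRCm38, with no role or order. The deposited values are a signal: read counts that the authors divided by 1 size factor per library, separately for each table. Of these values 100% came out as whole reads (within 0.01) after multiplying by that factor. The handling of strand and of reads that match several places, and the repeat annotation, are not given in the sources used here. No per-sample column was left unused (0).

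Exons came from GENCODE M21 (bedtools 2.31.1). Since the tables hold normalised values, log2(value + 1) was fitted with limma 3.58.1 (R 4.3.3; trend, two-sided) over all copies or genes with a mean of at least 10, with Benjamini-Hochberg adjustment over all tested rows. "Rose" and "fell" mean an adjusted p under 0.05. Fold changes are on that scale, which understates changes of low values. On the recovered reads edgeR 4.0.16 called 6834 copies and 129 genes, and DESeq2 1.42.0 called 8631 and 465. On simulated data limma recovered 90% of 4-fold and 100% of 16-fold changes placed among the 49781 copies, and 93% and 100% among the 26005 genes. The changed rows all had a mean of at least 50, and every row had the same dispersion. These shares therefore do not apply to copies or genes of lower level. Sequences were compared with blastn 2.17.0.

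Named copies were the 10 largest rises (1 per host), 5 largest falls, 5 most abundant and the most abundant copy of up to 12 called hosts. Named hosts were the called ones (the first 15 by adjusted p, and the other 4) and the 5 most abundant. Other copies named were chosen after their values were seen. Members and lists were chosen with earlier results of these data known.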

Additional observations from a re-analysis of the deposited data

How the results depend on the processing

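The count of copies that rose (63) was 31 with edgeR and the replicate number as a block, 20 with a mean of at least 50, 25 for copies with at least 50% of their length in exons, 98 for either strand, and 33 to 72 with 1 library left out. The count that fell (7) was 19 with DESeq2, 11 with a pseudocount of 10, 25 with quantile normalisation, 4 with the gene table's size factors, 2 for copies at least 50% in exons, 5 to 11 with 1 library left out, and 11 without het replicate 3 and KO replicate 2 (added after seeing the data). With the gene table's size factors the median over all copies moved from 0.03 to 0.38.

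Hosts that rose (19) were 51 with DESeq2, 6 with edgeR and the block, 11 with a pseudocount of 0.1, 3 to 22 with 1 library left out and 7 without the added pair of libraries. Hosts that fell (0) were 2 with DESeq2, 0 to 1 with 1 library left out and 1 without that pair. Copy-to-host ratios that fell (0) were 5 with a pseudocount of 10. The summed difference per 100 gene reads (0.0272) was 0.0205 to 0.0350 with 1 library left out and -0.187 per 100 TE reads. Morc1 was at -2.04 (adjusted p 0.0717) with edgeR and the block, -2.03 (0.0890) in limma without trend, and -2.31 to -1.88 with 1 library left out.

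Of single values, none of them called, the 5033426E14Rik copy (-0.29) was 0.046 with the gene table's size factors, 0.066 without the added pair and -0.40 to -0.10 with 1 library left out. Meg3 (0.05) was -0.18 to 0.31, turning negative without KO replicate 2 (-0.18), het replicate 1 (-0.06) or het replicate 2 (-0.09), and Gm2694 (-0.11) was -0.22 to 0.0030. Named copies that were called lost their call in 31 of 402 refits and named hosts in 103 of 319. The cause of these changes was not tested.

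The groups share replicate numbers. The deviations of same-numbered libraries from their group means had correlations of 0.138, -0.163 and -0.0438 over genes and 0.146, -0.243 and -0.117 over copies. With 3 libraries per group such values cannot decide whether the numbers pair the libraries. With the block, limma called 53 copies higher and 6 lower, and 13 hosts higher.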
